A study of Homo sapiens with 13 samples.

Results

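SMARCC1 binding was profiled by CUT&RUN in PANC1, an established human pancreatic ductal carcinoma cell line, and is described here site by site across the protein-coding genes. Peaks of both SMARCC1 replicates on chromosomes 1 to 22 and X were merged wherever they shared at least 1 bp. A merged site that held a peak from each replicate was called reproducible, and a site with a peak from 1 replicate only was called single-replicate. The merging gave 169 reproducible sites and 833 single-replicate sites, 1002 in all, from 1172 SMARCC1 peaks. Of the single-replicate sites, 430 came from replicate 1 and 403 from replicate 2. The whole series holds 186303 peaks in 12 libraries.

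SMARCC1, also called BAF155, is a scaffold subunit shared by the BAF and PBAF complexes, the mammalian SWI/SNF chromatin remodellers. These complexes use the ATP-driven motor BRG1, encoded by SMARCA4, or its relative BRM to slide or evict nucleosomes, which opens promoters and enhancers to transcription factors. SMARCC1 has no remodelling motor of its own and holds the core of the complex together. Genes for subunits of these complexes are recurrently mutated in pancreatic carcinoma.

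In CUT&RUN an antibody guides a nuclease to its target in permeabilised cells, and the DNA cut loose beside the target is sequenced. All libraries came from 1 genotype, a PANC1 line that stably expresses BRG1 and whose titles read BRG oe, taken here to mean that BRG1 was overexpressed. The cells were mildly crosslinked, and no library of PANC1 without added BRG1 was part of the series, so no result below bears on what BRG1 expression changed. The other 5 targets, BRG1, the antioxidant transcription factor NRF2 and the histone marks H3K4me1, H3K4me3 and H3K27ac, also had 2 libraries each. Nothing in the labels tells whether 2 replicates were grown apart, so the spread between them may be technical. An IgG library was not analysed here.

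The SMARCC1 lists were the shortest of the series, with 600 peaks in replicate 1 and 572 in replicate 2, and the −log10 q was 0 at each of their peaks. By that deposited value no SMARCC1 peak passed a false discovery rate of 5%. The sites below are therefore peak calls, and binding at any 1 of them is not established. In the other libraries the number of peaks lay between 919 and 37283. SMARCC1 peaks had a −log10 p between 2.04 and 6.79, and their fold enrichment over background lay between 1.94 and 5.14. The files hold no read counts, so depth is unknown, and a site without a peak in 1 library may be a site with too few reads there. Marks at gene ends were set against the cell type in the labels. H3K4me3 lay within 1000 bp of an end of 7 of 9 markers of ductal carcinoma cells (KRT8, KRT18, KRT19, SOX9, EPCAM, MUC1 and S100A6). None of 5 acinar, 4 endocrine, 4 endothelial and 4 fibroblast markers had H3K4me3 or H3K27ac there. Of 4 leukocyte markers, CD68 had H3K27ac without H3K4me3, and none had H3K4me3.

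Sequence was at hand for promoter windows of coding genes in RefSeq GRCh38.p14, which run from 250 bases before a gene's start to 50 bases after it. Of 22132 such windows, 31 (0.140%) met a reproducible SMARCC1 site. The 6 printed here belong to the best ranked sites that share at least 100 bases with such a window, a limit set after the overlaps were seen. They are examples and need not stand for the other windows, and 5 of them carried H3K4me3 with H3K27ac. Each is given 5′ to 3′ on the gene's own strand, so that base 1 is the farthest before the start. Capitals mark matches, on either strand, to 7 short motifs, whose letters are given with their shares after the sequences.
EXOC7: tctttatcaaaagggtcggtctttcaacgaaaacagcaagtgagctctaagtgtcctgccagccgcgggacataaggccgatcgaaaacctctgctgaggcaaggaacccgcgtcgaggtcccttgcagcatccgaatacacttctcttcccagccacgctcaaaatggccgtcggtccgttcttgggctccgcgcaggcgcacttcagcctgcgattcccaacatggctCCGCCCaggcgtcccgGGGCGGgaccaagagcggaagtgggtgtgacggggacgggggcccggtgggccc
TPCN2: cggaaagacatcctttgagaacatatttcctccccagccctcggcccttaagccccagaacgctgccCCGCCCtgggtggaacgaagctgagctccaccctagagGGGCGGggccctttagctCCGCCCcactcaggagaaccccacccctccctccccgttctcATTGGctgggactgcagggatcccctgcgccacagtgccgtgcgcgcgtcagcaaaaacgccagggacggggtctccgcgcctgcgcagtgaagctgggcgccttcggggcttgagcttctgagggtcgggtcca
TMEM268: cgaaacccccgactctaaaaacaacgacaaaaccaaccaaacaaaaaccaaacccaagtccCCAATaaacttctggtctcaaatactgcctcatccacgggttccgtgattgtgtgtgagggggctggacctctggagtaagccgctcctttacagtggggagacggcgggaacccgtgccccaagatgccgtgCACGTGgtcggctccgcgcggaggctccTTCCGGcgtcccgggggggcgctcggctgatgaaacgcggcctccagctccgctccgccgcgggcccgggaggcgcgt
SP110: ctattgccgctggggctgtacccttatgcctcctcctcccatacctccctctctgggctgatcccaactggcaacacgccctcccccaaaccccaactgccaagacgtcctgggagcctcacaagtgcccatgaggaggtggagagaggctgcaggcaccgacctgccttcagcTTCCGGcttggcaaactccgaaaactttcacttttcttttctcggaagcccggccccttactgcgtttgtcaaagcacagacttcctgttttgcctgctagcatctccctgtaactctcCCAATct
PICK1: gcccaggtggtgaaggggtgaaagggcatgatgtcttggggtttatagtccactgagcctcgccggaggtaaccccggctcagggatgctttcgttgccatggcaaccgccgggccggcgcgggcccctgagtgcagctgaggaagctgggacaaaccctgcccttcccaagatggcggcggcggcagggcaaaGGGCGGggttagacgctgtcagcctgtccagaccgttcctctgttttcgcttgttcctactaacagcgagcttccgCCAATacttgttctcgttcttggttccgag
FGD4: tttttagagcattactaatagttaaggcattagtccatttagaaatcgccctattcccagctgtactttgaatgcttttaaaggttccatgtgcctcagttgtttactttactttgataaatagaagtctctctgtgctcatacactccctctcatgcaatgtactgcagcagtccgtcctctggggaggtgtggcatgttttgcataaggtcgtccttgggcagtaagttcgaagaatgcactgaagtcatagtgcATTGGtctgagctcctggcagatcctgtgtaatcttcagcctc

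The EXOC7 window, chr17:76103738-76104037 on the minus strand, lay under the site with bases 1 to 148, while both GC boxes lay outside the site. EXOC7 encodes a subunit of the exocyst, which tethers secretory vesicles to the plasma membrane. TPCN2, a cation channel of endosomes and lysosomes, had its window at chr11:69048682-69048981 on the plus strand with bases 34 to 300 under the site. That stretch held 3 GC boxes and a CCAAT box. In TMEM268, a transmembrane protein gene, the window at chr9:114611041-114611340 on the plus strand had bases 1 to 151 under the site, with the CCAAT box, while the E-box and the ETS match lay outside it. SP110, a nuclear body protein induced by interferon, had its window at chr2:230219935-230220234 on the minus strand with bases 1 to 195, and the ETS match, under the site. PICK1, a scaffold protein that binds protein kinase C, had its window at chr22:38057005-38057304 on the plus strand with bases 40 to 300 under the site, and these held a GC box and a CCAAT box. The FGD4 window, chr12:32534072-32534371 on the plus strand, had bases 20 to 300 under the site and differed from the other 5. It held 43.7% G and C bases, against 57% to 66% in the others, carried H3K4me1 without H3K4me3 or H3K27ac, and had a CCAAT match as its only motif. FGD4 activates the small GTPase CDC42, which organises actin.

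An ETS match, CCGGAA on either strand, stood in 17 of the 31 windows met by a reproducible site, 54.8% (95% exact binomial interval 36.0% to 72.7%), against 32.8% of 58 windows met by a single-replicate site. Among 6250 windows lying in both H3K4me3 and H3K27ac the share was 35.3%, and among all 22012 windows of distinct sequence it was 21.1%. A GC box, GGGCGG, stood in 48.4% of the windows met by a reproducible site and in 56.9% of those met by a single-replicate site. Its share was 73.3% in the marked windows and 56.3% in all windows. CCAAT boxes were present in 48.4%, 37.9%, 30.2% and 34.7% of the same 4 sets. The E-box, CACGTG, had a share of 19.4% at reproducible sites and 6.90% at single-replicate sites, with 9.71% of marked and 8.32% of all windows. CRE half-sites, TGACGT, occurred in 9.68% against 8.62%, beside 10.6% and 8.90%. An AP-1 match, TGANTCA, occurred in 1 window, that of BCAR1 (3.23%), against 6.90% at single-replicate sites, 3.74% of marked and 6.16% of all windows. A TEAD match, GGAATG, occurred in 1 window, that of SNF8 (3.23%), against 10.3%, 10.2% and 12.2%. The 31 windows belong to 28 genes and some overlap each other, so they are fewer than 31 independent sequences, and the shares are given without a test.

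Strength, the authors' fold enrichment of a peak over its background, had overlapping ranges in the groups. The median was 3.17 at reproducible sites, taken as the mean of both libraries, and 3.03 at single-replicate sites, taken from their own library. The lowest and highest values were 2.01 and 4.70 at reproducible sites, and 1.94 and 5.14 at single-replicate sites. Within replicate 1 the medians were 3.13 at reproducible sites and 3.01 at sites of that library alone. Within replicate 2 they were 3.13 and 3.04. Of the 169 reproducible sites, 108 lay at or above the median of the single-replicate sites, and 34.5% of the single-replicate sites lay above the median of the reproducible ones. No test was made, because the same peaks decide both the strength and the group.

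The plot of strength by library shows how loosely the 2 libraries ordered the same sites. Across the 169 reproducible sites the log2 folds of both libraries had a Pearson r of 0.437 and the folds a Spearman coefficient of 0.361, given as a description over sites that share the same 2 libraries. The higher value came from replicate 1 at 79 sites and from replicate 2 at 90. At 11 sites the folds differed by more than 1, and the median difference was 0.343. The farthest apart was the site beside CCNB1, the cyclin that drives entry into mitosis, at 2.73 in replicate 1 and 4.68 in replicate 2. The folds took few distinct values: replicate 1 had 197 distinct folds among 600 peaks and replicate 2 had 205 among 572, so many sites share a rank.

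**Figure D1:**
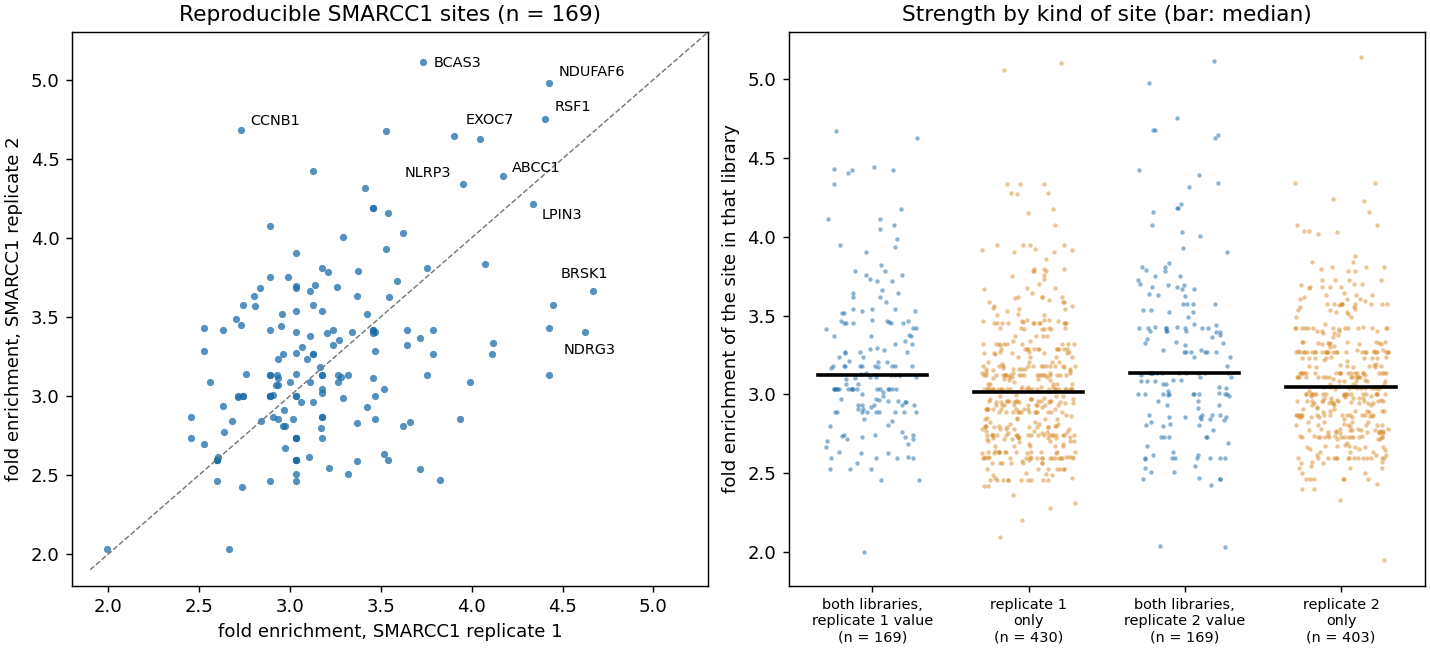
Left, fold enrichment of each of the 169 reproducible sites in replicate 1 (x axis) and replicate 2 (y axis), with the line of equal values dashed. Right, fold enrichment of each site in its library for sites in both libraries and sites in 1 library, with bars at the medians, which lie between 3.01 and 3.13.

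The strongest peaks were found again more often than the weakest, which is given as a description. Of the strongest 20% of replicate 1 peaks, those of at least 3.42-fold, 40.8% (32.0% to 50.2%) lay in a reproducible site, against 18.3% (11.9% to 26.4%) of the weakest 20%. In replicate 2 the shares were 44.3% (35.1% to 53.9%) and 25.4% (17.7% to 34.4%). The groups between these had 27.2%, 29.6% and 21.1% in replicate 2, from stronger to weaker, so the share did not fall steadily there. Over all peaks, 28.3% of replicate 1 and 29.5% of replicate 2 lay in a reproducible site. Reproducible sites were also wider, with a median merged width of 323 bp against 229 bp for single-replicate sites. Part of that follows from merging, but the single peaks inside them were also wider, with medians of 266 bp against 232 bp in replicate 1 and 265 bp against 229 bp in replicate 2.

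Most pairs were not marginal. Of 170 pairs of overlapping peaks, 158 shared at least 50% of the shorter peak, and the median distance between paired summits was 51.5 bp. The smallest overlap that made a site reproducible was 35 bp, near ZKSCAN1. The smallest gap that left peaks of both libraries unpaired was 11 bp, at TMEM123, and the next was 70 bp.

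Most sites of both kinds lay near a gene. A coding gene lay within 50 kb of 159 reproducible sites (94.1%) and 769 single-replicate sites (92.3%), beside 92.6% of all merged sites, with an odds ratio of 1.32 (95% interval 0.656 to 2.95) that did not pass (Fisher's exact test, two-sided, adjusted p = 0.519). Sites inside a gene were 116 (68.6%) against 601 (72.1%), beside 71.6% of all sites, with an odds ratio of 0.845 (0.583 to 1.24) that did not pass (Fisher's exact test, adjusted p = 0.510). Fisher's tests here run over sites, which are not replicates and can lie beside each other, and the adjustment is Benjamini-Hochberg over 8 shares. The annotation used gives gene spans without exons, so exonic and intronic sites could not be split.

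Sites at gene ends, within 1000 bp of either end of a coding gene, were more frequent among the reproducible ones. They numbered 47 of 169, 27.8% (95% interval 21.2% to 35.2%), against 155 of 833, 18.6% (16% to 21.4%), beside 20.2% of all merged sites. The odds ratio was 1.69 (1.13 to 2.49, Fisher's exact test, adjusted p = 0.0338), and the 2 libraries' own single-replicate shares were 19.3% and 17.9%. Without replicate 2, that is against the sites of replicate 1 alone, the odds ratio was 1.61 and did not pass, and with a 5000 bp window it was 1.08. It also did not pass with gene starts only, chromosome 8 left out (1.42), or among sites of at least 2.94-fold (1.71). The other 6 alternatives kept the call. Promoter windows can lie at the same gene ends, so they are no separate check. They were met by 27 reproducible sites (16%) and 50 single-replicate sites (6.0%). Of these 27 sites, 24 lay in H3K4me3 and 25 in H3K27ac, beside 33.7% and 80.5% of all reproducible sites.

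The largest odds ratio of the 8 shares was that of H3K27ac, the acetylation found at active promoters and enhancers. Of the reproducible sites 136 met an H3K27ac region found in both H3K27ac libraries, 80.5% (73.7% to 86.2%), against 462 single-replicate sites, 55.5% (52.0% to 58.9%), beside 59.7% of all merged sites. The odds ratio was 3.31 (95% interval 2.19 to 5.12, Fisher's exact test, adjusted p = 4.7e-09). The share was 55.8% for sites of replicate 1 alone and 55.1% for sites of replicate 2 alone, so the gap between the groups was larger than the gap between libraries. With the summit in place of the whole site the odds ratio was 3.51. Among sites of at least 2.94-fold in each group it was also 3.51.

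H3K4me3, the mark of promoters, was met by 57 reproducible sites (33.7%) and 203 single-replicate sites (24.4%), beside 25.9% of all sites. The odds ratio was 1.58 (1.08 to 2.28, Fisher's exact test, adjusted p = 0.0422). It did not pass against the sites of replicate 2 alone (1.61) or of replicate 1 alone (1.56). H3K4me1, the mark of enhancers whether active or not, was met by 94 (55.6%) against 435 (52.2%), beside 52.8% of all sites, an odds ratio of 1.15 (0.812 to 1.62) that did not pass (Fisher's exact test, adjusted p = 0.511). The plot of shares by kind of site sets these side by side.

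**Figure D2:**
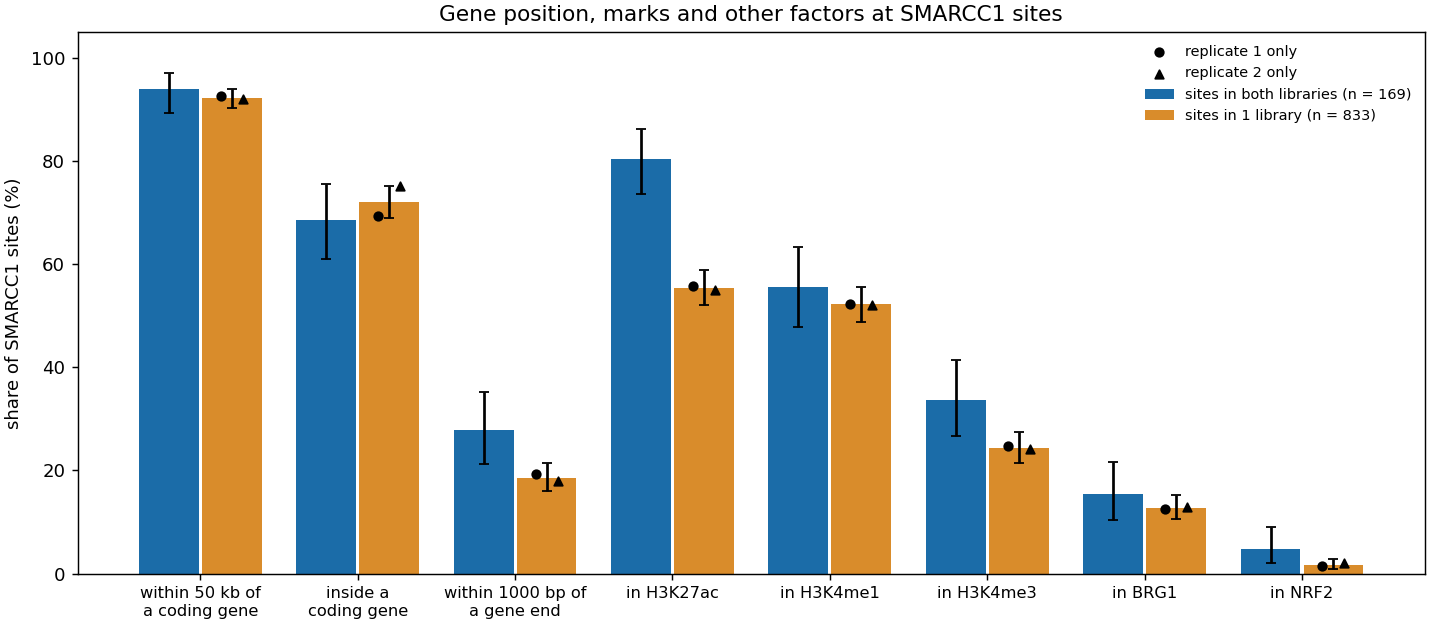
Share of SMARCC1 sites (y axis, percent) near, inside or at the ends of coding genes and in regions of each mark or factor (x axis), for 169 sites in both libraries and 833 sites in 1 library, with 95% exact binomial intervals and points for the sites of each library alone. The widest gap is at H3K27ac, 80.5% against 55.5%.

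Combinations of marks show where the gap lay. Sites that met H3K4me1 with H3K27ac and lacked H3K4me3, the pattern of active enhancers, made up 41.4% of reproducible and 27.3% of single-replicate sites. Those with H3K4me3 and H3K27ac but no H3K4me1, the pattern of active promoters, made up 27.2% against 18.5%. Sites with H3K4me1 alone were 8.88% against 21.4%, and sites with none of the 3 marks were 9.47% against 20.6%. The difference in acetylation was largest away from gene ends. Within gene bodies 75.9% of 87 reproducible and 48.7% of 501 single-replicate sites met H3K27ac, and between genes within 50 kb it was 80.0% of 25 against 46.0% of 113. At gene ends the shares were 91.5% of 47 and 85.8% of 155. Where a site met H3K27ac, that region's own fold had a median of 5.24 at reproducible and 4.72 at single-replicate sites. These splits were not tested.

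**Figure D3:**
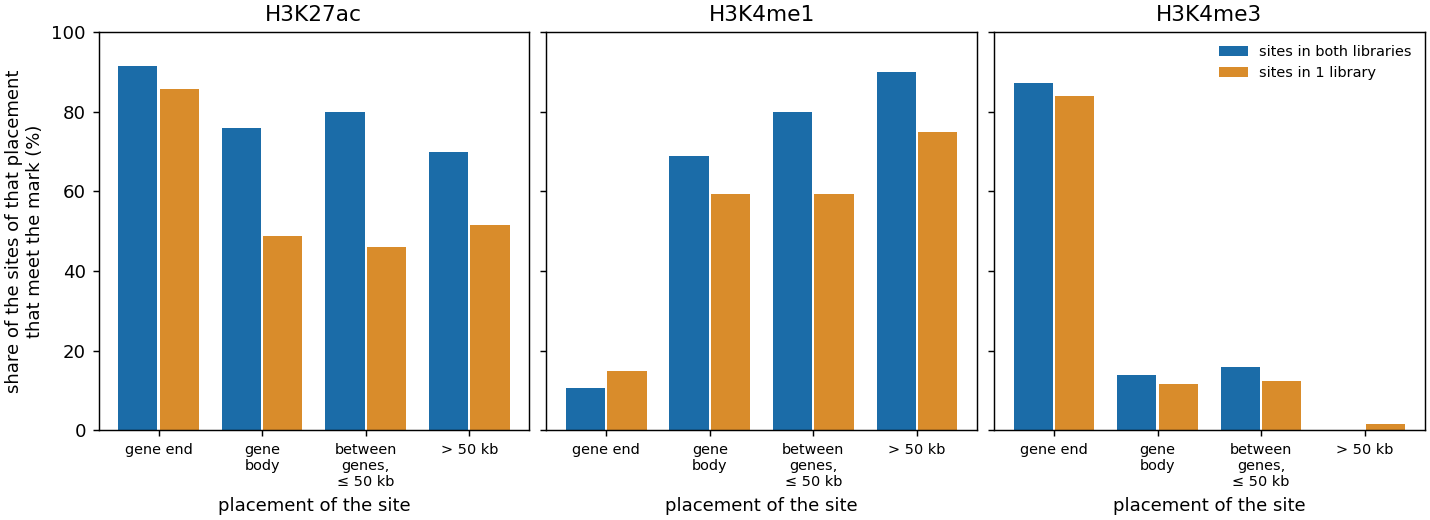
Share of SMARCC1 sites that met H3K27ac, H3K4me1 or H3K4me3 (y axis, percent) by where the site lay (x axis), for sites in both libraries and sites in 1 library. In gene bodies 75.9% of sites in both libraries met H3K27ac, against 48.7% of sites in 1 library.

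Strength within the reproducible sites was only loosely tied to marks. H3K27ac was met by 87.7% of the 57 best ranked sites, 75% of the middle 56 and 78.6% of the lowest 56. Of the 16 unmarked sites, 2 stood among the best ranked 57: NLRP3 and DCAF12.

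BRG1, the motor of the complex to which SMARCC1 belongs, had its own reproducible region at 26 reproducible SMARCC1 sites, 15.4% (10.3% to 21.7%), against 106 single-replicate sites, 12.7% (10.5% to 15.2%), beside 13.2% of all sites. The odds ratio of 1.25 (0.751 to 2.01) did not pass (Fisher's exact test, adjusted p = 0.510). With BRG1 peaks of either replicate in place of regions found in both, the odds ratio was 1.67 and passed, and without BRG1 replicate 1 it was 1.63 and passed. NRF2 regions lay at 8 reproducible sites (4.73%) and 14 single-replicate sites (1.68%), beside 2.20% of all sites. That odds ratio of 2.91 (1.04 to 7.56) passed by a small margin (Fisher's exact test, adjusted p = 0.0423) and did not pass without SMARCC1 replicate 1 (2.45) or replicate 2 (3.51), or without NRF2 replicate 1 (1.74).

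All 8 sites with NRF2 also had BRG1 and met H3K27ac, beside 15.4% and 80.5% of all 169 reproducible sites. Folds of different targets come from separate libraries, so they are set side by side without a comparison between targets. At the site 11124 bp from LPIN3, a lipin that makes diacylglycerol, the SMARCC1 folds were 4.34 and 4.21 in replicates 1 and 2, the BRG1 folds 4.77 and 3.03, and the NRF2 folds 5.25 and 3.79. Inside ZFAND1, which brings the proteasome to stress granules, they were 3.79 and 3.42 for SMARCC1, 4.22 and 6.81 for BRG1, and 6.50 and 5.19 for NRF2, the highest NRF2 values of the 8. The site 43676 bp from MTURN had SMARCC1 folds of 3.03 and 3.68 beside BRG1 folds of 4.77 and 4.83 and NRF2 folds of 5.93 and 4.56. Inside IQGAP1, a scaffold that links actin to the cell membrane, the SMARCC1 folds were 2.99 and 3.75, with 5.13 and 6.12 for BRG1, the highest BRG1 mean of the 26 sites, and 3.39 and 3.60 for NRF2. SIPA1L3, a Rap GTPase activator, had 3.03 and 3.54 for SMARCC1, 3.70 and 4.14 for BRG1, and 3.44 and 3.28 for NRF2. Near ATIC, which catalyses the last steps of purine synthesis, SMARCC1 had 2.96 and 3.27, BRG1 3.98 and 5.24, and NRF2 4.95 and 4.71. CMIP and KLHL41 had the lowest SMARCC1 means of the 8. CMIP, an adaptor linked to T cell signalling, had 2.70 and 3.49, with BRG1 at 3.06 and 2.83 and NRF2 at 2.94 and 3.28. KLHL41, a muscle protein of the sarcomere, had 3.03 and 2.73 at its promoter, with BRG1 at 4.56 and 4.37 and NRF2 at 2.98 and 3.47.

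The other 18 sites with BRG1 lacked NRF2. RSF1, the histone chaperone of an ISWI remodelling complex, had the strongest SMARCC1 value among them, with folds of 4.40 and 4.75 beside BRG1 folds of 3.70 and 5.20. PDGFRB, a receptor for platelet-derived growth factor, had the lowest SMARCC1 mean of the 26 sites, with folds of 2.60 and 2.46, beside BRG1 folds of 6.45 and 4.74. A site 31127 bp from AOX1, an aldehyde oxidase, had SMARCC1 at 4.12 and 3.33 and BRG1 at 3.99 and 3.38. In ANO6, a calcium-activated lipid scramblase, they were 3.46 and 3.42, with 4.22 and 3.42 for BRG1. At the promoter of VPS39, a subunit of the HOPS complex that fuses late endosomes with lysosomes, SMARCC1 had 3.34 and 3.40 and BRG1 2.85 and 2.90, the lowest BRG1 mean of the 26 sites. These 3 sites met H3K27ac, as did those of RSF1, ARHGAP26 and EFNA5, while the USP34 site met H3K4me1 alone of the marks. ARHGAP26, a GTPase activator, had 2.89 and 4.08, with 3.92 and 4.37 for BRG1. USP34, a deubiquitinase, had 3.03 and 3.40, with 3.35 and 5.03 for BRG1. In EFNA5, an ephrin ligand, the SMARCC1 folds were 3.11 and 3.09 and the BRG1 folds 2.84 and 3.48. The next 4 sites all met H3K27ac. MYSM1, a histone deubiquitinase, had 2.63 and 3.42, with 3.74 and 4.20 for BRG1. FAM200A, which derives from a transposon, had 3.03 and 3.0, with 3.92 and 4.14 for BRG1. At the promoter of PLBD2, a lysosomal protein, SMARCC1 had 2.93 and 3.11 and BRG1 4.22 and 3.68. A site 24228 bp from IL12A, a subunit of interleukin 12, had 2.89 and 3.13, with 4.56 and 4.37 for BRG1. Among the weakest SMARCC1 sites with BRG1 were those of ADRA1B, an adrenergic receptor, at 2.71 and 2.99, with 2.64 and 5.85 for BRG1, and of FERMT2, a kindlin that activates integrins, at 2.60 and 2.61, with 3.48 and 5.37 for BRG1. BAZ1A, a subunit of the ISWI complexes ACF and CHRAC, had 2.45 and 2.87, with 3.28 and 2.77 for BRG1. The other 3 sites with BRG1 had no coding gene within 50 kb, and their nearest genes were PTPN1, RAB11FIP4 and FNDC3B.

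Coding genes were assigned where a site lay inside them, or to the nearest one within 50 kb. A reproducible site was assigned to 154 of 19974 coding genes (0.771%), and a single-replicate site to 702 (3.51%). The genes are given below by the mean of a site's ranks of fold enrichment in both libraries, from strongest to weakest. Folds are given for replicate 1 and then replicate 2.

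NDUFAF6, an assembly factor of mitochondrial complex I on chromosome 8, came first with folds of 4.43 and 4.98 (mean 4.70 ± 0.390, SD, n = 2). It was followed by RSF1, described above, at chr11:77705523-77705805. The third was ABCC1, an export pump for glutathione conjugates and drugs, with 4.17 and 4.39 inside the gene at chr16:15988194-15988569, where the H3K27ac folds were 10.5 and 8.69. EXOC7 had 4.05 and 4.63 at chr17:76103890-76104164, in the promoter printed above. The fifth was the LPIN3 site at chr20:41329283-41329697. These 5 sites were all acetylated, as were 9 of the first 10, beside 80.5% of all reproducible sites. ZNF619, a zinc finger protein, had 3.90 and 4.65 at chr3:40477072-40477387, and BCAS3, a cytoskeletal regulator of cell migration, had 3.73 and 5.11 at chr17:61294840-61295189. NLRP3, the sensor of the inflammasome, had 3.95 and 4.34 at chr1:247447765-247448205 with none of the 3 marks, the sole unmarked site among the first 10. OSBPL9, an oxysterol-binding protein of the Golgi, had 4.07 and 3.83 at chr1:51648371-51648688. BRSK1, a kinase of neuronal polarity, had 4.67 and 3.67 at chr19:55301977-55302375.

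Ranks 11 to 25 held 15 sites with mean folds between 3.58 and 4.10, of which 14 met H3K27ac. OAS2, an interferon-induced sensor of double-stranded RNA, had 3.53 and 4.68. ZMIZ1, a coactivator of Notch and androgen receptor signalling, had 3.62 and 4.03, and TPCN2 had 3.54 and 4.15 at its promoter. MACF1, which crosslinks microtubules and actin, had 4.43 and 3.43. All 4 met H3K27ac. A site 5831 bp from PTTG1IP2 had 3.59 and 3.73. ELL2, a subunit of the super elongation complex, had 3.46 and 4.19 and was the site of this group without H3K27ac. TMEM268 had 3.46 and 4.19 at its promoter. ERGIC1, which cycles between endoplasmic reticulum and Golgi, had 3.41 and 4.32. A site 192 bp from NDRG3, a protein stabilised by lactate, had 4.63 and 3.40, and ACP7, an acid phosphatase, had 3.54 and 3.62 at 119 bp from the gene. ZFAND1 followed. SNF8, a subunit of the endosomal sorting complex ESCRT-II, had 3.38 and 3.79 beside its start. The other 3 sites of these ranks had no coding gene within 50 kb. They lay nearest to SMOC2 at 183630 bp (folds 4.45 and 3.57), PTPN1 at 58620 bp (3.76 and 3.81) and HERPUD2 at 94925 bp (3.53 and 3.93).

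Ranks 26 to 57 held 32 sites with mean folds between 3.30 and 3.78, of which 27 met H3K27ac and 1 had no mark. In order, their genes were AOX1, the adhesion receptor ADGRG6, SP110 with SP140, the zinc finger protein CXXC5, COMMD10, TSHZ1, the endoplasmic reticulum protein VAPB, R3HDM2, AIFM3, PICK1, the forkhead factor FOXO6, and ITPA, which clears inosine nucleotides. These were followed by NDUFB5, a subunit of complex I whose site also met the promoter window of MRPL47, the unmarked site near DCAF12, and then FGD4, ANO6, SOX30 with C5orf52, PTS, which acts in tetrahydrobiopterin synthesis, CIB2, UBASH3B and the fatty acid activating enzyme ACSL5. The tetraspanin CD81, the transcription factor IRF1, VPS39, TRIM66, the casein kinase CSNK1A1, ZNF827, the collagen prolyl hydroxylase P3H2, the survival protein BCL2L1, MTURN and the bromodomain protein ZMYND8 closed these ranks. DCAF12 had 4.43 and 3.13. BCL2L1, whose product BCL-XL blocks apoptosis, had 3.27 and 3.35 inside the gene.

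Ranks 58 to 85 held 28 sites with mean folds between 3.16 and 3.71, of which 23 met H3K27ac and 3 had no mark. Their genes were RTP4, IQGAP1, the cation-chloride cotransporter relative SLC12A8, SPATA20, SIPA1L3, ARHGAP26, the signalling adaptor TRAF3, the dynein adaptor BICD1, CCNB1, C12orf56, SUPT5H with 2 sites, and TBCK with AIMP1. They went on with TRIO, an exchange factor for small GTPases, KCTD1, the focal adhesion scaffold BCAR1, AGPAT4, the small GTPase RALB, the Nogo receptor RTN4R, the focal adhesion protein TNS3, ZNF185, USP34, FRMD5, the phosphodiesterase PDE10A, RNF217 and the remodeller EP400. ZNF185 was the sole reproducible site on the X chromosome, with folds of 2.95 and 3.52.

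Ranks 86 to 113 held 28 sites with mean folds between 2.98 and 3.26, of which 19 met H3K27ac and 5 had no mark. Their genes were ABCC1 again, TMEM184B, GPRIN2, AKT2 with 2 sites, YIPF4, KIRREL1 with 2 sites, the mucin MUC5B, DNMBP, ZKSCAN1, ZNF609, the fatty acid elongase ELOVL5, SP100, the translation factor EIF2D, the cytokinesis protein ANLN, EFNA5, ATIC, CMIP and the RNA decay factor ZFP36L2. The lysosomal sialic acid transporter SLC17A5, the kinase BRSK2, HECTD2, MYSM1, the ubiquitin ligase RNF216, MMS19, which delivers iron-sulfur clusters, and NDUFS5, a subunit of complex I, completed them.

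Ranks 114 to 141 held 28 sites with mean folds between 2.86 and 3.02, of which 23 met H3K27ac and 4 had no mark. Their genes were the mitotic kinesin KIF20B, PKD1L1, VILL, FAM200A, FEZ1, SAMD4B, RTP4 again, PLBD2, IL12A, EEF1E1, the G protein subunit GNA12, SPATS2L, AKT2 again, ITPA again, ARPIN with the readthrough gene ARPIN-AP3S2, and the actin crosslinker ACTN4. They went on with ZUP1, the dynactin subunit DCTN2, C1orf74, the ribosomal protein RPL11, the DNA repair protein BABAM2, MTMR10, KLHL41, DNMBP again, P2RX3 and TRERF1. The site assigned to P2RX3 lay in the promoter window of SSRP1, a subunit of the histone chaperone FACT, with folds of 2.93 and 2.85.

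Ranks 142 to 169 held 28 sites with mean folds between 2.01 and 2.88, of which 21 met H3K27ac and 2 had no mark. Their genes included THBS4, whose site also met the promoter window of MTX3, and CCT6B, whose site met that of ZNF830. They were followed by BMP2K, DENND5A, the surface glycoprotein CDCP1, the BAF subunit BCL7C, the DNA topoisomerase TOP1, KLF12, ADAP1, the ribosome biogenesis factor UTP20 and ADRA1B. The helicase MCM9, the signal recognition particle subunit SRP9, BAZ1A, NIBAN2, the CREB coactivator CRTC3, FERMT2, PITPNM2, RAB31, the calpain CAPN12, the peroxisomal import protein PEX14 and LITAF followed. The last were the spindle protein TPX2, the nucleolar methyltransferase FBL, PDGFRB and SUPT5H again, which had the lowest mean of all, with folds of 2.0 and 2.03.

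Reproducible sites without a coding gene within 50 kb numbered 10. Their nearest genes were SMOC2, PTPN1, HERPUD2, ZNF516, PTCHD3, RAB11FIP4, CHD1, JUN, FNDC3B and TBL1XR1, at distances between 58620 bp and 229230 bp. The farthest was the site upstream of JUN, the AP-1 subunit, with folds of 2.92 and 3.07 and both H3K4me1 and H3K27ac. Of these 10 sites, 7 met H3K27ac, 9 met H3K4me1 and 0 met H3K4me3.

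More than 1 reproducible site was assigned to 7 genes. AKT2, a kinase of insulin and growth factor signalling, had 3, with folds of 3.18 and 3.02, 2.80 and 3.63, and 3.21 and 2.55. SUPT5H, a subunit of the elongation factor DSIF, also had 3, with 3.28 and 3.12, 3.66 and 2.84, and 2.0 and 2.03. Both genes lie on chromosome 19, and the SUPT5H sites inside the gene had no mark, while the weakest one, 659 bp outside it, had H3K4me3 and H3K27ac. ABCC1 had a further site with 2.83 and 3.68, also acetylated. KIRREL1, an adhesion protein of the kidney filter, had a site with 3.82 and 2.47 and another with 2.73 and 3.45, so the libraries ranked them the opposite way. DNMBP, a scaffold of CDC42 signalling, had sites with 2.81 and 3.57 and with 3.03 and 2.73. ITPA had 3.64 and 3.32, and 2.91 and 3.01. RTP4, a chaperone for receptors that interferon induces, had 3.24 and 3.32, and 3.32 and 2.51. Counting single-replicate sites too, 25 genes had 3 sites or more, led by KIRREL1 and SUPT5H with 6 each. ASAP2, a regulator of the ARF GTPases, had 5 sites and not 1 of them was reproducible.

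Most listed genes of the pathways linked to these complexes had no reproducible site, as few coding genes did (0.771%). Of 28 BAF and PBAF subunit genes 1 had one, BCL7C, with folds of 3.03 and 2.60. Of 26 other remodeller genes 3 had one: RSF1, EP400 (3.42 and 2.93) and BAZ1A. Of 18 AP-1 factor genes, 23 genes of the YAP and TEAD pathway, 25 of the TGF-beta pathway, 24 of epithelial and mesenchymal state and 28 of the RAS and MAP kinase pathway, 0 had one. Single-replicate sites were assigned, among others, to WWTR1 and VGLL4 of the YAP and TEAD list and to TGFB2 and ACVR1 of the TGF-beta list. Of 30 NRF2 pathway genes 1 had a reproducible site, ABCC1, while NFE2L2 itself and ABCC3 had a single-replicate one. Of 28 adhesion and actin genes ACTN4 (2.96 and 2.91) and IQGAP1 had one, and of 20 exocyst and vesicle transport genes EXOC7 had one. No marker gene of ductal, acinar, endocrine, leukocyte, endothelial or fibroblast cells had a site of either kind.

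A further list, of interferon response genes, was drawn up after the sites were seen and so has no test. Of its 49 genes 6 had a reproducible site, beside 0.771% of all coding genes: OAS2, SP110, SP140, IRF1, RTP4 and SP100. SP110 and SP140 share 1 site (folds 3.64 and 3.42), and since the sites guided the list its count carries no weight beside that share. The IRF1 site, 41716 bp from this activator of interferon genes, had 3.03 and 3.90. SP100, a nuclear body protein, had 3.54 and 2.60 at 4268 bp from the gene. All 6 sites of these genes met H3K27ac, beside 80.5% of all reproducible sites.

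The 10 strongest single-replicate sites had folds between 4.28 and 5.14. FBLIM1, an adaptor at cell junctions, had 5.14 in replicate 2. In replicate 1, QNG1, which salvages the base queuine, had 5.11 and TTLL10, a polyglycylase, had 5.06. These 3 exceeded the highest mean of any reproducible site, 4.70. DYSF, a membrane repair protein, and TJAP1, a tight junction protein, each had 4.34 in replicate 2. NRP2, a semaphorin receptor, THOC7 with ATXN7, and the kinase PAK2 each had 4.34 in replicate 1. TBX19 and PRELID3A had 4.28 there. Each lacked a peak in the other library, and all but PAK2 met H3K27ac, beside 55.5% of all single-replicate sites.

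The genes of the groups overlapped in part. Of the 154 genes with a reproducible site, 40 also had a single-replicate site, which is 26% of them and 5.70% of the 702 genes with a single-replicate site. Over all coding genes, 3.51% had a single-replicate site and 0.771% a reproducible one. Genes of both kinds were long, with a median span of 64.1 kb for the reproducible and 79.0 kb for the single-replicate ones, against 24.2 kb for all coding genes. Assigning a gene where a site lies inside it favours long genes, so these spans do not describe SMARCC1 alone. Taken library by library, replicate 1 peaks were assigned to 520 and replicate 2 peaks to 488 of the 19974 coding genes. These libraries had 191 genes in common, 36.7% and 39.1% of each. Of these 191 genes, 39 had peaks from both libraries that did not touch, and so no reproducible site.

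A larger share of the reproducible than of the single-replicate sites lay on 7 chromosomes, namely 5, 7, 12, 18, 19, 20 and 22. Chromosome 5 held 16, 9.47% (5.51% to 14.9%), against 32, 3.84% (2.64% to 5.38%), with 4.53% of the coding genes. Chromosome 19 held 13, 7.69% (4.16% to 12.8%), against 25, 3.0% (1.95% to 4.40%), with 7.26% of the genes. Chromosome 20 held 10, 5.92% (2.87% to 10.6%), against 27, 3.24% (2.15% to 4.68%), with 2.69% of the genes. Fewer sites lay on chromosome 22, with 4 (2.37%) against 6 (0.720%), and on chromosome 18, with 4 (2.37%) against 7 (0.840%). Chromosome 12 held 11 against 40 sites and chromosome 7 held 11 against 52, with 6.51% of the reproducible sites on each. Chromosome 20 had the most reproducible sites for its genes, 18.6 per 1000, and chromosome 5 had 17.7. Chromosome 21 held 0, against 6 single-replicate sites. The X chromosome held 1 against 21, or 0.592% (0.0150% to 3.25%) against 2.52% (1.57% to 3.83%). To give both groups the same spread, 18.1% of the reproducible sites would have to change chromosome. The same figure between the sites of replicate 1 alone and of replicate 2 alone was 15.0%. Against coding genes it was 18.9% for reproducible and 17.3% for single-replicate sites. The intervals of the groups do not touch on chromosome 5, and they overlap on each of the others. No test was made over chromosomes.

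**Figure D4:**
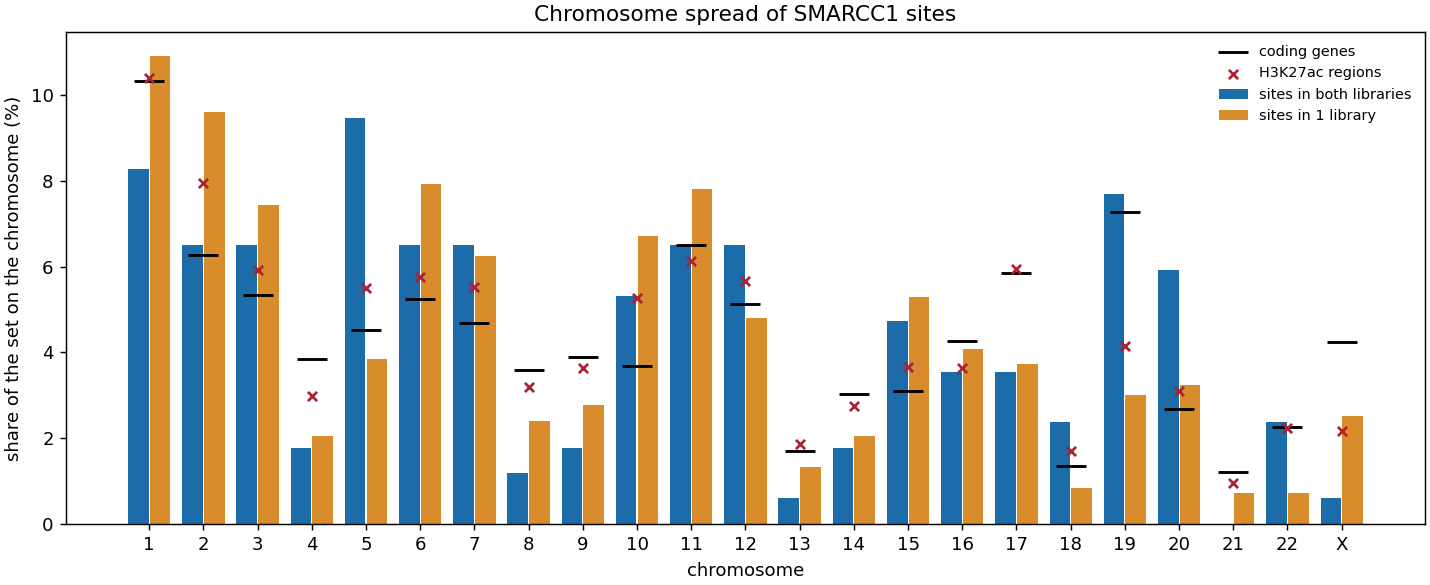
Share of each set on each chromosome (y axis, percent; x axis, chromosome) for 169 SMARCC1 sites in both libraries and 833 in 1 library, with coding genes as black lines and H3K27ac regions as crosses. Chromosome 5 holds 9.47% of the sites in both libraries and 3.84% of those in 1 library.

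On chromosome 19 the reproducible sites stood close together. A stretch of 2.23 Mb, chr19:38039980-40272115, held 12 of its 13 reproducible sites, at SIPA1L3, ACTN4, CAPN12, ACP7, SAMD4B, SUPT5H, FBL and AKT2. The stretch was chosen after the sites were seen, as the longest chain of reproducible sites with gaps of at most 1 Mb, and so has no test. It held 7.10% of all reproducible sites and 1.08% of the single-replicate sites, with 0.330% of the coding genes. Copy number was not measured in these files, so the counts are per stretch of reference sequence and not per copy in the cells. By library it held 2.83% of the peaks of SMARCC1 replicate 1 and 2.80% of those of replicate 2. Regions of the other targets, which had no part in choosing the stretch, had smaller shares there. It held 0.516% of H3K27ac, 0.370% of H3K4me1, 0.313% of H3K4me3, 0.196% of BRG1 and 1.04% of NRF2 regions. Within the stretch 57.1% (34.0% to 78.2%) of the 21 merged sites were reproducible, against 16% (13.8% to 18.5%) of the 981 elsewhere. Reproducible sites defined the stretch, so the choice itself raised this share, and the intervals do not allow for that. On the rest of chromosome 19 it was 1 of 17, the site in BRSK1.

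Other values of the stretch are given as a description, since they rest on few sites, chosen after they were seen, and were not tested. No mark was met by 4 of the 12 reproducible sites (33.3%), at SUPT5H and AKT2, against 7.64% of the 157 reproducible sites elsewhere. Their median fold was lower, 3.04 against 3.18, while their median −log10 p was higher, 3.74 against 3.21. The stretch also held the lowest folds of both groups, 2.01 among reproducible and 1.94 among single-replicate sites. The plot of the stretch shows each target's regions along it. Without the stretch, the odds ratio for H3K27ac was 3.53, and the NRF2 share no longer passed (2.70). Among the next chains, those on chromosome 11 (MUC5B, BRSK2, CD81) and chromosome 15 (ARPIN, IQGAP1, CRTC3) held 3 reproducible sites each.

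**Figure D5:**
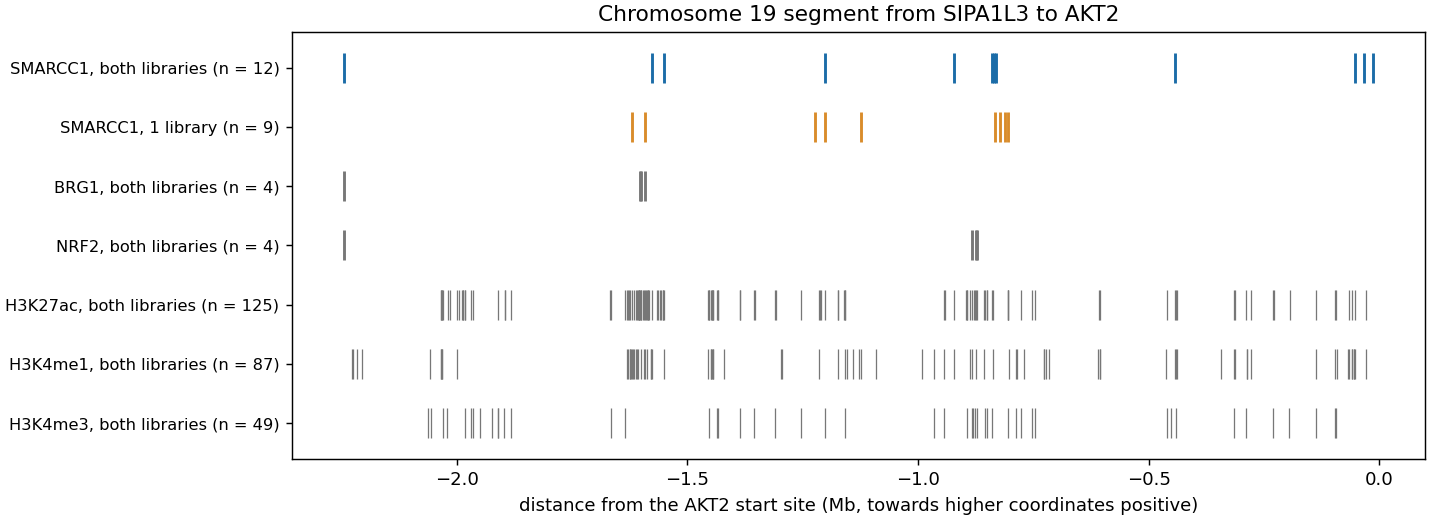
Regions of each target (rows) along the stretch of chromosome 19 between SIPA1L3 and AKT2, by distance from the AKT2 start (x axis, Mb). The 12 SMARCC1 sites in both libraries and 9 in 1 library spread over 2.23 Mb, with 4 BRG1 regions in the same span.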

How the data were processed

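CUT&RUN peak lists of 12 libraries, 2 for each of 6 targets, were read as the authors deposited them, and the 2 SMARCC1 lists were the subject. Libraries were grouped by target and replicate number, per the labels. Bowtie2 2.4.1, SAMtools 1.9, Picard 2.23.9, MACS2 2.2.7.1 and the GRCh38 build are named without role or settings, per the submitters' processing notes. The strength of a peak is the authors' fold enrichment. The labels do not say whether that ratio was taken over the IgG library, which was not analysed here. The −log10 p and the peak score deposited by the authors were used as alternatives and to describe the peaks, and the deposited −log10 q of every SMARCC1 peak was 0. The lists carry neither reads nor coverage, and depth is therefore unknown.

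Peaks were called library by library. Both replicates were merged at 1 bp of overlap, and mark or factor regions were those with a peak from both of that target's libraries. Where a site held several peaks of a library, the highest fold stood for it. Sites were ordered by the mean of their ranks of fold over both libraries. Gene spans and promoter windows are RefSeq GRCh38.p14. Windows of 15812 of 19974 coding genes were used, and chromosome 8 windows were not used here.

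Shares were compared over sites by Fisher's exact test, two-sided, with Benjamini-Hochberg adjustment over 8 shares at 0.05. Each share has a 95% exact (Clopper-Pearson) interval, which covers counting error alone. Strength, chromosomes, motifs and gene lists were described without a test. Alternatives were other rules of overlap, placement by summit, a −log10 p of at least 3, a strength floor, other windows, other ranks of strength, each library left out and same-numbered libraries paired. The merging, assignment and tests were checked on simulated data. The members, lists and tests were chosen with earlier results of these data known. Genes with a reproducible site are named, except for an item not reported here, with values for the 25 best ranked sites, genes with several sites, sites with BRG1 or NRF2, list members and the 10 strongest single-replicate sites. Sites outside the promoter windows are given without sequence, because no genome sequence was used here. Tables were made in pandas 2.3.3 under Python 3.11.15, tests in SciPy 1.17.1 with NumPy 2.4.6, and plots in matplotlib 3.10.9.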

Additional observations from a re-analysis of the deposited data

How the results depend on the processing

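Over 86 alternatives of the 8 tested shares, 64 kept the direction and the side of the threshold. The other 18 alternatives concern counts, strength, order and chromosome spread, which have no test. The odds ratio for H3K27ac kept its call in each of its 12 alternatives, and that for sites inside genes stayed uncalled in each of its 7. H3K4me1 turned to 0.836 at a −log10 p of at least 3, BRG1 to 0.986 at a strength floor of 2.94-fold, and nearness to a gene to 0.801 with a 10 kb window. The NRF2 share lost its call at the summit (2.73), at a −log10 p of at least 3 (1.64), at the strength floor (2.14), with peaks of either NRF2 replicate (1.69) and without the chromosome 19 stretch (2.70, chosen after seeing the data). Gene ends lost theirs at the strength floor (1.71), with 5000 bp windows (1.08) and with gene starts only, chromosome 8 left out (1.42). H3K4me3 lost its call at the strength floor (1.66). BRG1 gained a call with peaks of either replicate (1.67). The causes were not tested. The floor kept 129 reproducible sites and the stricter p kept 92. At the stricter p, the odds ratios of gene ends (2.13) and H3K4me3 (2.05) kept their calls.

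With each library left out in turn, odds ratios ran between 1.28 and 1.37 for nearness to a gene, 0.722 and 0.969 inside genes, 1.61 and 1.77 at gene ends, 3.22 and 3.98 for H3K27ac, 1.11 and 1.17 for H3K4me1, 1.56 and 1.66 for H3K4me3, 1.23 and 1.63 for BRG1 and 1.74 and 3.51 for NRF2. Leaving out a SMARCC1 library here dropped only the sites of that library alone, while all 169 reproducible sites stayed. Gene ends lost their call without SMARCC1 replicate 2, H3K4me3 and NRF2 without either SMARCC1 replicate, and NRF2 without NRF2 replicate 1 (1.74), while BRG1 gained one without BRG1 replicate 1 (1.63).

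As a replicate block, same-numbered libraries were set against each other, which the labels do not support as a pairing. Under the replicate block the odds ratios of numbers 1 and 2 were 3.22 and 4.05 for H3K27ac, 1.14 and 1.10 for H3K4me1, and 1.65 and 1.63 for H3K4me3, with no call changed. They were 1.34 and 1.65 for BRG1, which passed for number 2, and 2.38 and 1.58 for NRF2, which did not pass for number 2.

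Reproducible sites numbered 92 at a −log10 p of at least 3, against 169. By other rules of overlap their number lay between 150 and 170. The median strength of reproducible minus single-replicate sites was 0.143 by fold, −0.0458 with the lower fold of both libraries and 2 by peak score. The number of reproducible sites has no value with a SMARCC1 library left out, because a reproducible site needs a peak from both SMARCC1 libraries. With 169 sites seen in both libraries, shares of a few percent carry wide intervals.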
